A study of Mus musculus with 4 samples.

Results

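The contractile genes of smooth muscle were followed in fibroblasts of mouse melanoma: the actins *Acta2* and *Actg2*, the actin-binding proteins *Tagln*, *Cnn1* and *Cnn2*, the tropomyosins *Tpm1* and *Tpm2*, and the myosin genes *Myl9*, *Myh11* and *Mylk*. These 10 genes were taken by name from the 33696 genes of the deposited tables, and all 10 were present. Smooth muscle shortens when myosin pulls on actin filaments, and fibroblasts that take up part of this machinery, with alpha smooth muscle actin (*Acta2*) as the usual marker, are called myofibroblasts. In tumors such cells are one of the known forms of cancer-associated fibroblasts (CAF). Several of these genes are known targets of serum response factor, which binds a DNA element called the CArG box.

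C57Bl/6 mice that carried the *Cxcl13*-cre-tdTomato transgene and the R26R-eGFP flox allele had received B16-F1-OVA melanoma cells in the peritoneal cavity, and tumors were taken on day 14. In these mice tdTomato reports a cell in which the *Cxcl13* promoter is active, and eGFP reports a cell in which Cre has acted, and stays on after *Cxcl13* has been switched off. PDPN hi cells without CD45 and CD31 had been sorted into 4 populations, and every population, the tdTomato neg eGFP neg one included, came from tumor-bearing reporter mice. Each population was 1 library of 3′ single-cell RNA sequencing, in which each captured transcript is counted once by its unique molecular identifier (UMI).

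The libraries held 90259852 UMIs in 11745 barcodes for tdTomato neg eGFP neg, 52046896 in 5299 for tdTomato+ eGFP neg, 10071954 in 984 for tdTomato+ eGFP+ and 63310850 in 6461 for tdTomato neg eGFP+. Cells with 500 to 6000 genes, at most 10% mitochondrial UMIs, no UMI of the immune gene *Ptprc* or the melanoma gene *Pax3* and at least 3 UMIs of *Col1a1*, *Col1a2* and *Col3a1* together were kept as fibroblasts. These were 21098 of 24489 barcodes, or 9866, 4634, 853 and 5745 cells in the order above, with medians of 5776, 9117.5, 8732 and 8397 UMIs. In all results below the populations are given in this order unless they are named. Pairs of libraries shared 2 to 21 barcodes. Doublets were not called, and 204, 75, 2 and 91 kept cells had RNA of both sex marks, *Xist* and a Y-linked gene.

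With 1 library per population no difference between populations could be tested. Levels are UMIs of a gene per 1000000 UMIs (CPM), summed over cells. Their 95% intervals are exact Poisson ones, those of shares are exact binomial (Clopper-Pearson) and those of ratios are conditional binomial, and all cover counting error only. Levels were not scaled to gene length, since a 3′ tag is counted once per transcript, and the order of different genes by level is not read.

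*Acta2*, the main actin of smooth muscle, was present at similar levels in all 4 populations. It reached 675 CPM in tdTomato neg eGFP neg fibroblasts (95% interval 669 to 681), 637 CPM in tdTomato+ eGFP neg (630 to 644), 714 CPM in tdTomato+ eGFP+ (696 to 732) and 548 CPM in tdTomato neg eGFP+ cells (542 to 554). These intervals did not overlap, but they hold no variation between mice. Against tdTomato neg eGFP neg cells the log2 ratios were -0.08, 0.08 and -0.30, and each turned sign in cells of 1 sex mark. The *Acta2* protein is nearly identical to other muscle actins, and whether 3′ tags of these genes were exchanged was not tested. *Acta1* was at or below 0.464 CPM and *Actc1* at or below 0.0179 CPM.

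*Tagln* encodes transgelin, which binds actin filaments and marks smooth muscle early. Its level was 353 CPM (349 to 358) in tdTomato neg eGFP neg, 325 CPM (320 to 330) in tdTomato+ eGFP neg, 391 CPM (378 to 404) in tdTomato+ eGFP+ and 194 CPM (191 to 198) in tdTomato neg eGFP+ fibroblasts. The tdTomato neg eGFP+ library was thus the lowest, with a log2 ratio of -0.86 to tdTomato neg eGFP neg cells, short of 2-fold. In Y-only cells, which had a Y-linked UMI and no *Xist* UMI, the log2 ratio was -1.09 and past 2-fold.

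The tropomyosins, which lie along actin filaments and govern access of myosin, moved in different directions. *Tpm1* was highest in tdTomato neg eGFP neg cells at 434 CPM and reached 326, 415 and 381 CPM in the others. Its log2 ratio kept its sign in all 10 alternatives for tdTomato+ eGFP neg, in 7 for tdTomato+ eGFP+ and in 9 for tdTomato neg eGFP+. *Tpm2* was lowest in tdTomato neg eGFP neg cells at 238 CPM and reached 372, 320.0 and 327 CPM in the others, log2 ratios of 0.64, 0.43 and 0.46 that kept their sign in all 10 alternatives run.

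Among the myosin genes the populations lay further apart. *Myl9*, the regulatory light chain of smooth muscle myosin, stood at 30.5 CPM (29.3 to 31.8) in tdTomato neg eGFP neg cells and at 13.6, 16.8 and 12.1 CPM in the others, so all 3 reporter-positive populations were below it. *Mylk*, the kinase that switches this light chain on, was at 56.0, 48.1, 43.3 and 19.0 CPM, with only the tdTomato neg eGFP+ library (17.9 to 20.2) below 2-fold of the first. *Myh11*, the smooth muscle myosin heavy chain, was rare everywhere, at 0.740 CPM (0.559 to 0.961), 5.68 CPM (5.01 to 6.41), 3.01 CPM (1.97 to 4.41) and 1.22 CPM (0.947 to 1.55). It was the only one of the 10 genes past 2-fold on the higher side, in both tdTomato+ libraries, and with means over cells it also passed in tdTomato neg eGFP+ cells, with a log2 ratio of 1.28.

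The calponins, which bind actin and restrain myosin, differed little. *Cnn1*, the form typical of mature smooth muscle, stayed between 2.13 and 2.32 CPM with overlapping intervals. *Cnn2*, a form found in many cell types, was at 67.0, 76.7, 80.2 and 76.5 CPM. *Actg2*, the actin of visceral smooth muscle, was close to absent: 92 UMIs gave 1.22 CPM in tdTomato neg eGFP neg cells, 12 UMIs gave 0.261 CPM in tdTomato+ eGFP neg cells, none was found in tdTomato+ eGFP+ cells, where 3 UMIs would be 0.348 CPM and the exact 95% limit is 0.427 CPM, and 26 UMIs gave 0.466 CPM in tdTomato neg eGFP+ cells. *Cnn1*, *Actg2* and *Myh11*, which are typical of mature smooth muscle, were thus measured with few UMIs and little precision.

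**Figure D1:**
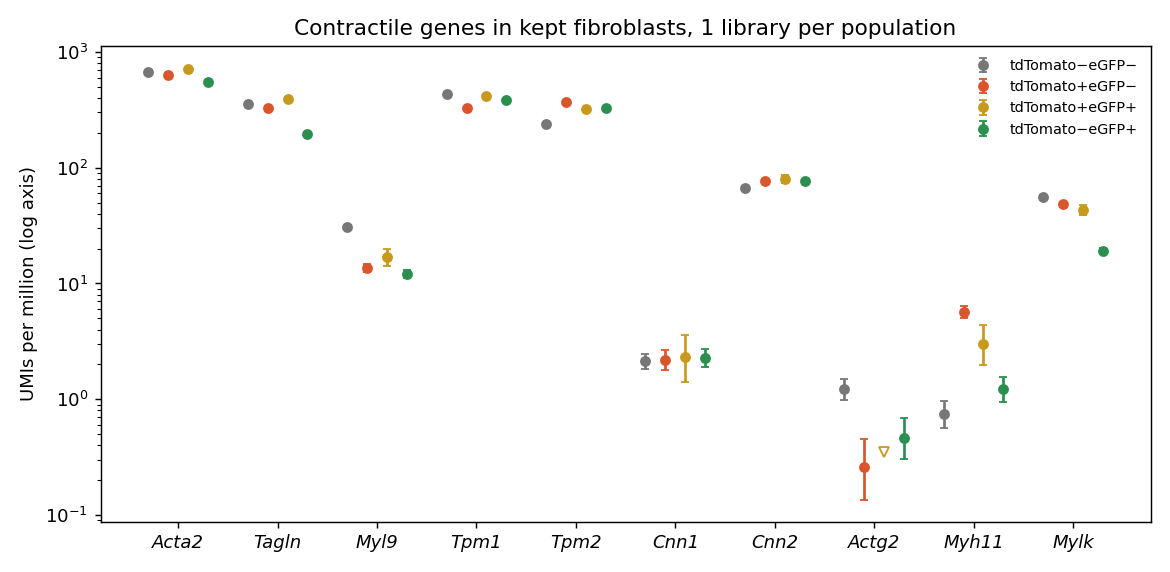
Level of each of the 10 contractile genes in kept fibroblasts of the 4 populations, 1 library each, in CPM on a log axis. Points are levels from summed UMIs, bars are exact 95% Poisson intervals, and the open triangle marks 3 UMIs (0.348 CPM), the floor put in place of 0 *Actg2* UMIs; *Myl9* and *Actg2* are highest in the tdTomato neg eGFP neg library, *Myh11* in the tdTomato+ eGFP neg library.

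A gene was called when its level differed by at least 2-fold from tdTomato neg eGFP neg fibroblasts, a population that all 3 comparisons share. All 10 genes had the 50 UMIs per pair needed. In tdTomato+ eGFP neg fibroblasts 2 were lower, *Myl9* (log2 ratio -1.16, 95% interval -1.29 to -1.03) and *Actg2* (-2.22, -3.22 to -1.35), against 5.54% of 15125 genes, and 1 was higher, *Myh11* (2.94, 2.52 to 3.38), against 3.34%. The *Myl9* call ended in Y-only cells, where the log2 ratio was -0.65.

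In tdTomato+ eGFP+ fibroblasts *Actg2* was called lower with its 0 put at a floor of 3 UMIs over the library, and the upper 95% limit of its log2 ratio was -1.48, against 8.27% of 14311 genes called lower, and *Myh11* was higher (2.02, 1.29 to 2.72), against 2.52% called higher. *Myl9* had a log2 ratio of -0.86 there, which became -1.20 with means over cells and -1.19 in Y-only cells. This library was the smallest, and both calls rest on few UMIs, 0 for *Actg2* and 26 for *Myh11*. With means over cells the *Actg2* log2 bound, which the floor sets, was -0.02 and gave no call.

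In tdTomato neg eGFP+ fibroblasts 3 genes were lower, *Myl9* (-1.33, -1.46 to -1.21), *Actg2* (-1.38, -2.07 to -0.74) and *Mylk* (-1.56, -1.66 to -1.46), against 5.95% of 15236 genes, and none was higher, against 1.5%. In *Xist*-only cells *Actg2* did not differ in this way, with 0.942 CPM from 15 UMIs against 0.886 CPM from 20 UMIs, too few for a call. The median log2 ratio of the 10 genes was -0.10, 0.10 and -0.24 in the 3 comparisons, beside 0.07, -0.04 and 0.08 over all genes tested. With 10 genes, counts of 1 to 3 show which genes differed and not a shift of the whole group.

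Markers of other cells and of fibroblasts also differed between the populations. The mesothelial list of 10 genes summed to 1084, 438, 557 and 1282 CPM, led by *Upk1b* in the first library and *Wt1* in the others, and 9, 5 and 1 of its genes were at least 2-fold lower than in tdTomato neg eGFP neg cells. The melanoma list of 7 genes summed to 289, 27.9, 6.14 and 29.9 CPM, led by *Dct* except in tdTomato+ eGFP+ cells, where *Mlana* led. *Pax3* was at 0 by the filter, and the other 6 were lower in all 3 comparisons. Leaving out the 203, 9, 1 and 21 kept cells with at least 3 UMIs of 4 melanoma genes was an alternative chosen after seeing the data. It left 3, 2 and 3 contractile genes called, and the share of all genes called under it is not given. In the fibroblast list *Col3a1* led at 9279, 14933, 12870 and 9269 CPM, *Lum* was lower in all 3 comparisons, and *Col1a1* was higher in tdTomato+ eGFP+ cells. The endothelial list summed to at most 7.41 CPM, with *Kdr* lower in both tdTomato+ populations, and the immune list to at most 45.0 CPM, led by *Csf1r*, with *Itgam* higher in tdTomato+ eGFP neg and *Lyz2* lower in tdTomato+ eGFP+ cells. The part of these cells in the contractile differences was not tested.

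Detection per cell depends on depth, so each cell was also thinned to 1000 UMIs, which left out 262, 34, 11 and 108 shallower cells. As sequenced, 59.0%, 74.4%, 75.0% and 71.6% of fibroblasts held an *Acta2* UMI. After thinning the shares were 29.0% (28.1 to 29.9), 33.5% (32.1 to 34.9), 35.9% (32.6 to 39.2) and 29.6% (28.5 to 30.9). Thinning thus brought the shares of the first and the last library close to each other. Shares and levels need not run alike, since tdTomato+ eGFP neg cells had a higher share but a lower *Acta2* level than tdTomato neg eGFP neg cells.

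Melanoma cells, which should lack smooth muscle actin, gave the background. Among 274, 59, 14 and 90 such cells, with medians of 20352.5, 19856, 19794 and 21247.5 UMIs, an *Acta2* UMI was found in 34.7%, 23.7%, 21.4% and 20%, and after thinning in 8.06%, 0%, 0% and 3.33%. Thinned *Acta2* shares in fibroblasts were above these in every library. Melanoma cells held more UMIs as sequenced than fibroblasts, so their thinned shares need not measure the background in fibroblasts. In 119, 191, 29 and 84 *Ptprc*+ cells, at medians of 7105, 9931, 8731 and 9876.5 UMIs, the thinned shares were 20.2%, 16.3%, 14.3% and 17.5%, so immune cells also carried *Acta2* RNA, and its source was not tested.

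*Tagln* was held by fewer cells. Its UMI was found in 26.8%, 35.2%, 36.2% and 20.2% of fibroblasts as sequenced and in 12.5%, 13.6%, 15.2% and 7.54% after thinning, against at most 2.20% of thinned melanoma cells and 2.63%, 10.3%, 3.57% and 2.5% of thinned immune cells. In tdTomato+ eGFP neg the immune share was thus close to that of fibroblasts. *Tpm1* was different, because thinned shares of 27.4%, 24.9%, 28.6% and 28.8% in fibroblasts stood beside 19.0%, 22.0%, 35.7% and 17.8% in melanoma cells. *Mylk* was found in 4.87%, 4.24%, 3.44% and 1.44% of thinned fibroblasts and in 4.76%, 5.08%, 0% and 4.44% of thinned melanoma cells. The presence of *Tpm1* or *Mylk* in a cell was thus not particular to fibroblasts. *Myl9* was found in 1.28% of thinned fibroblasts and 2.17% of 184 thinned immune cells of tdTomato+ eGFP neg. In tdTomato+ eGFP+ it was found in 2.02% of thinned fibroblasts and 3.57% of 28 thinned immune cells, so on very few cells. Both tdTomato neg libraries went the other way for *Myl9*. Fibroblast shares there were 3.34% without eGFP and 1.05% with it, against 0% of 114 and of 80 thinned immune cells. *Actg2* reached 1.63 CPM in melanoma cells of tdTomato+ eGFP neg and 1.62 CPM in those of tdTomato neg eGFP+, above its 0.261 and 0.466 CPM in the fibroblasts. These values rest on 3.39% of 59 and 2.22% of 90 melanoma cells as sequenced, so on very few UMIs. In tdTomato neg eGFP neg *Actg2* was lower in melanoma cells, at 0.703 against 1.22 CPM in fibroblasts. In tdTomato+ eGFP+ neither held an *Actg2* UMI.

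*Acta2* and *Tagln* were unevenly spread over cells. The variance of thinned UMIs over cells divided by their mean, which is about 1 when a gene is sampled evenly, was 3.59, 2.19, 2.80 and 2.45 for *Acta2* and 4.35, 3.43, 4.15 and 4.19 for *Tagln*. For *Tpm2* it was 1.08, 1.13, 0.924 and 1.09. By this measure *Tagln* was spread less evenly over cells than *Tpm2* in every library.

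Few cells showed much of the program at this depth. Of thinned fibroblasts 38.9%, 33.3%, 30.8% and 34.9% held none of the 10 genes, and the mean number found was 1.01, 1.12, 1.20 and 1.03 per cell. At least 5 of the 10 were found in 0.739% (0.578 to 0.932), 0.739% (0.512 to 1.03), 0.950% (0.411 to 1.86) and 0.639% (0.448 to 0.883) of cells. These intervals overlapped, and they cover counting of cells within 1 library each. In melanoma cells the mean number was 0.403, 0.305, 0.429 and 0.322, and in immune cells it was 0.649, 0.641, 0.536 and 0.513. At least 5 of the genes were also found in 2 of 184 immune cells from tdTomato+ eGFP neg, or 1.09% (0.132 to 3.87). No immune cell of the other libraries and no melanoma cell held as many.

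**Figure D2:**
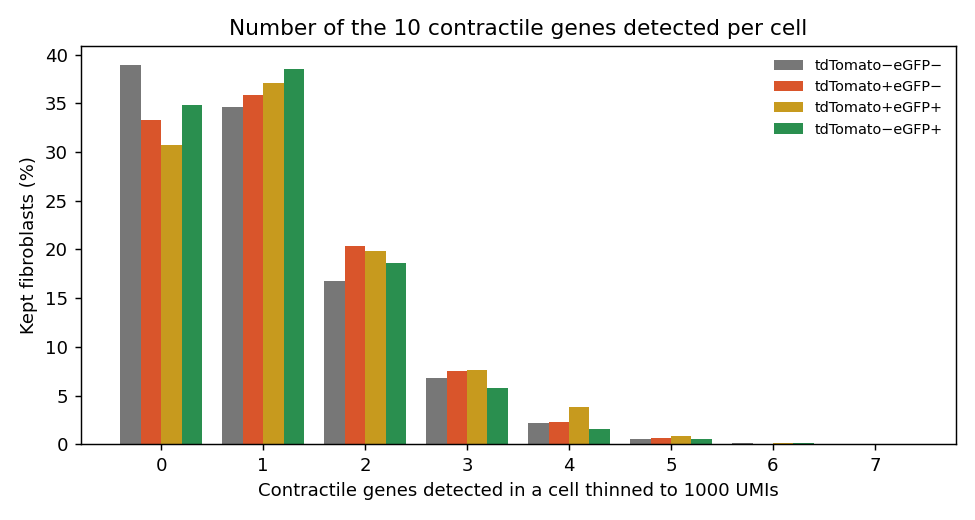
Share of kept fibroblasts, in percent, by the number of the 10 contractile genes detected after thinning to 1000 UMIs, for the 4 populations with 1 library each. Bars start at 0; cells with none make up 38.9% of the tdTomato neg eGFP neg library and 30.8% of the tdTomato+ eGFP+ library.

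Pairs of contractile genes were counted in the same cell and set against the number that their separate shares would give, which was not done for pairs of other genes. Of 45 pairs, 14 had at least 5 cells expected to hold both in every library, and 13 of these were above the expected number in all 4. *Acta2* with *Tagln* ran from 1.78 to 2.37 times the expected number over the libraries, and *Acta2* with *Myl9* from 1.52 to 2.62 times, and these were the 2 pairs above 1.5 in every library. *Tpm1* with *Tpm2* stayed between 1.10 and 1.19, and *Tpm2* with *Mylk* ran from 0.847 to 1.24. Some pairs reached the 5 expected cells in fewer libraries, such as *Tagln* with *Mylk*, at 1.74 to 5.57 times in 3 libraries, and *Tagln* with *Myl9*, at 3.09 to 3.25 times in 2. Co-detection was slight for the tropomyosins with each other.

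Cells were then ordered by their *Tagln* UMIs after thinning, a division chosen after values had been seen and given as a description. Cells with at least 3 *Tagln* UMIs made up 3.44%, 2.98%, 5.34% and 2.24% of fibroblasts. In them *Acta2* reached 3652, 2773, 3377 and 3407 CPM, against 419, 474, 460.5 and 411 CPM in cells without a *Tagln* UMI. *Myl9* reached 192, 97.9, 145 and 159 CPM against 18.0, 7.94, 5.08 and 5.65 CPM. *Tpm2* rose least among the well-measured genes, to 455, 659, 531 and 588 CPM from 214, 341, 295 and 310 CPM. *Mylk* stood at 156, 158, 196 and 164 CPM in these cells and at 45.6, 38.8, 29.8 and 11.7 CPM in cells without a *Tagln* UMI, so the libraries lay closer in the few *Tagln*-rich cells than in the many cells without. On few UMIs, *Cnn1* was at 17.0, 18.9, 32.0 and 30.9 CPM in *Tagln*-rich cells against 1.08, 1.21, 0.412 and 1.20 CPM. *Myh11* was at 2.21, 37.8, 12.8 and 11.9 CPM against 0.565, 3.97, 2.47 and 0.826 CPM. *Actg2* was at 13.9, 1.96, 0 and 13.3 CPM against 0.220, 0.103, 0 and 0.118 CPM.

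As a sum, the pericyte and vascular smooth muscle list did not move in a common direction between *Tagln*-rich cells and cells without a *Tagln* UMI. Its 10 genes summed to 326, 573, 496 and 552 CPM with at least 3 *Tagln* UMIs and to 355, 573, 606 and 514 CPM with none. Over all kept fibroblasts *Ndufa4l2* and *Des* held most of this sum, so it says little of the other genes of the list. Single genes of the list were not read by *Tagln* UMIs. Over all kept fibroblasts *Rgs5*, a pericyte marker, was at 0.317, 2.26, 0 and 1.09 CPM and *Higd1b* at or below 0.116 CPM, *Ndufa4l2* led the list at 271 to 398 CPM, *Rgs5* was higher in tdTomato+ eGFP neg as well as tdTomato neg eGFP+ cells, and the filament gene *Des* in all 3 reporter-positive populations. *Myocd*, the coactivator that drives smooth muscle differentiation, was at or below 0.116 CPM. The myofibroblast list of 12 genes, with *Postn*, *Tnc* and *Fn1* among them, summed to 7801, 8480, 8744 and 8456 CPM in the *Tagln*-rich cells against 2935, 4956, 4590 and 3288 CPM in cells with none.

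Levels were also read within ranges of other markers, which are ranges of a count and not cell types. With 0, 1 to 4 and at least 5 mesothelial UMIs per thinned cell, *Acta2* was at 817, 481 and 420.2 CPM in the tdTomato neg eGFP neg library and lower in the last range than in the first in all 4 libraries. *Tagln* was at 493, 163 and 99.2 CPM over the same ranges of that library, and at 329, 80.0 and 62.6 CPM in tdTomato neg eGFP+ cells. *Mylk* was at 77.7, 28.3 and 7.24 CPM in the former and 32.8, 7.56 and 3.99 CPM in the latter. *Tpm1* went the other way, from 408 to 576 CPM and from 368 to 434 CPM. The last range held 718, 40, 16 and 447 cells, so the tdTomato+ libraries give little weight there.

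Because the summed mesothelial list was highest in tdTomato neg eGFP+ cells, although *Msln*, *Krt8* and *Krt18* were higher in tdTomato neg eGFP neg cells, the populations were compared again among cells with no UMI of the list after thinning. The log2 ratio of tdTomato neg eGFP+ to tdTomato neg eGFP neg cells was then -0.58 for *Tagln*, -1.04 for *Myl9* and -1.24 for *Mylk*. These cells still held 442 CPM of the list in the former and 268 CPM in the latter population, so the comparison did not remove that difference.

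**Figure D3:**
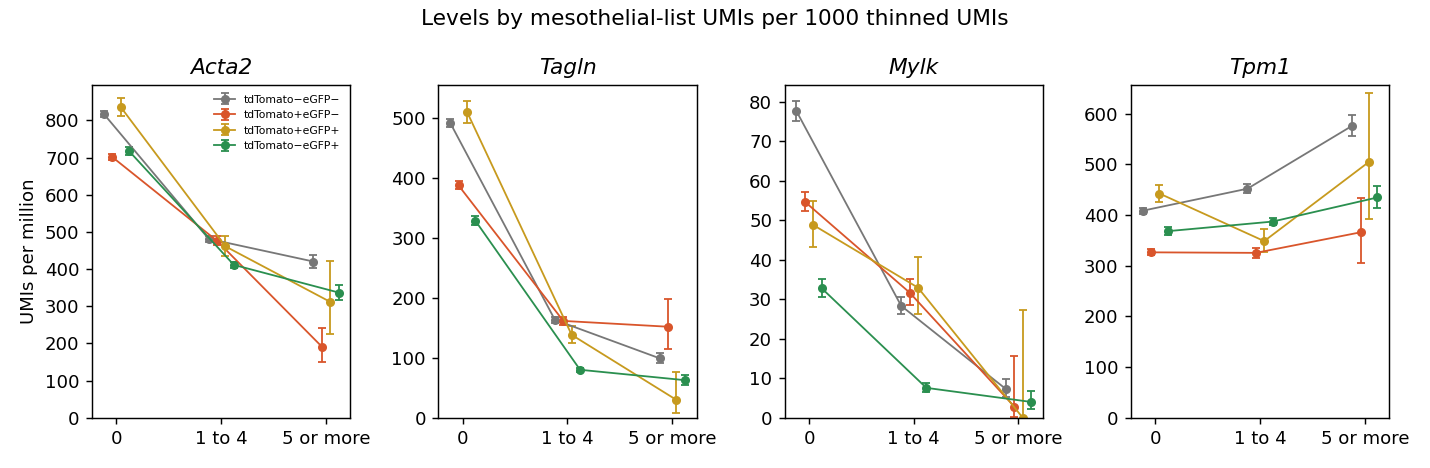
Level of *Acta2*, *Tagln*, *Mylk* and *Tpm1*, in CPM, in kept fibroblasts with 0, 1 to 4 or at least 5 mesothelial-list UMIs after thinning to 1000 UMIs, in the 4 populations with 1 library each. Points are levels from summed UMIs and bars exact 95% Poisson intervals; in the tdTomato neg eGFP neg library *Tagln* goes from 493 to 99.2 CPM and *Tpm1* from 408 to 576 CPM.

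In the next ranges, a UMI present or absent is one after thinning to 1000 UMIs, so cells without can hold one as sequenced. Cells with a *Cxcl13* UMI, the chemokine whose promoter drives the reporter, held less *Tagln* in every library: 132, 185, 139 and 51.3 CPM against 370, 429, 473 and 206 CPM in cells without. *Acta2* was lower as well, at 482, 552, 494 and 468 CPM against 690, 700, 786 and 555 CPM. *Myh11* did not follow them and was at 5.99 CPM with and 5.45 CPM without a *Cxcl13* UMI in the tdTomato+ eGFP neg library. With at least 1 UMI of *Pi16*, *Dpp4* or *Ly6c1*, markers of universal fibroblasts, *Acta2* was at 469 CPM against 737 CPM in tdTomato neg eGFP neg cells, while *Mylk* was at 79.5 against 49.3 CPM and was higher in such cells in all 4 libraries. With a cell cycle UMI *Acta2* was at 692, 724, 657 and 599 CPM against 669, 599, 736 and 524 CPM without, higher in all libraries but tdTomato+ eGFP+. None of the 6 cell cycle genes was past 2-fold between populations (*Top2a* led at 173 to 193 CPM), and of the 5 universal fibroblast genes 4, 4 and 3 were lower, *Pi16*, *Ly6c1* and *Dpt* in each and *Dpp4* in both tdTomato+ populations.

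Other gene lists put these values in place. The further smooth muscle list of 16 genes summed to 1466, 2291, 2130 and 1905 CPM, led in each library by *Cald1*, the actin-binding caldesmon. *Des* was higher in all 3 reporter-positive populations, at 213, 176 and 140 CPM against 60.1 CPM, *Cnn3* was past 2-fold in tdTomato+ eGFP neg cells, and *Pdlim3* was lower in all 3. None of the 19 nonmuscle actomyosin genes, with *Actb* highest at 3572 to 4309 CPM, was past 2-fold in any comparison. Of the 12 myofibroblast genes 8 were lower in tdTomato neg eGFP+ cells, *Postn*, *Cthrc1*, *Lrrc15*, *Fap*, *Tnc*, *Col8a1*, *Itga11* and *Spp1*, against 5.95% of all genes tested. *Fn1*, which led the list, stood at 2028 against 1370 CPM, and the summed list was at 3579 CPM in these cells and 3459 CPM in tdTomato neg eGFP neg cells, so the list as a sum was not lower. In tdTomato+ eGFP neg cells *Cthrc1*, *Lrrc15*, *Col8a1* and *Spp1* were lower and *Fn1* and *Thbs1* higher, and in tdTomato+ eGFP+ cells *Postn*, *Lrrc15* and *Col8a1* were lower and *Thbs1* higher. Of the 22 genes around serum response factor and TGF-beta, *Fhl2* was lower in all 3 comparisons, *Smad7* was higher in both tdTomato+ populations, and *Ankrd1* was higher in tdTomato+ eGFP+ cells. The 9 early response genes, which can rise during tissue dissociation, held none past 2-fold and were led by *Fos* at 1139 to 1384 CPM. The striated muscle list summed to 231 CPM at most, of which *Des* made up 213 CPM, and *Tnni1* was lower in tdTomato+ eGFP+ cells.

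The genes whose UMIs varied over cells most like the mean of the 7 well-detected contractile genes were ranked among 7018 genes, by Pearson's r of log-scaled UMIs over thinned cells, averaged over the 4 libraries. Cells of 1 library share its depth and preparation, and r is a description. *Tagln* came first with r = 0.414 against the mean of the other 6, and *Acta2* came next with 0.358. *Ccn2*, a secreted matricellular protein, followed with 0.292, then *Timp1*, an inhibitor of matrix proteases, with 0.253, *Actb* with 0.240, the matrix protein *Tnc* with 0.228, *Tmsb4x*, which binds free actin, with 0.224, *Myl9* with 0.215, *Aldh1a3*, an enzyme of retinoic acid synthesis, with 0.206, and *Serpinh1*, a collagen chaperone, with 0.194. *Sparc*, a matrix protein, had 0.194, the nonmuscle actin *Actg1* 0.186 and *Cthrc1* 0.181. The median over all genes compared was -0.0023. The other 4 contractile genes compared ranked lower, *Tpm1* 17, *Cnn2* 37, *Tpm2* 40 and *Mylk* 53.

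Since *Acta2*, *Tagln* and *Myl9* were found together, the 300-base promoters in RefSeq (GRCm38.p6, 250 bases before to 50 after the gene start) were searched on both strands for the CArG box, whose pattern reads alike on both. Only the exact pattern was counted: CC, then 6 letters that are each A or T, then GG. Promoters of 7 of the 10 genes were in the table, those of *Tagln*, *Actg2* and *Myh11* were not, and 2 held a box, beside 1.63% of 32851 promoters of that length. The stretch around each box is shown because these letters are the element named above, with the box in capitals; it lies at chr2:156775293-156775322 on the plus strand for *Myl9* and at chr10:79988534-79988563 on the plus strand for *Cnn2*, both before the gene start.
Myl9: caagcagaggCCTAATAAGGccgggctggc
Cnn2: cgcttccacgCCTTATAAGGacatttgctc
A match is a description of the letters. The lack of one in the windows of *Acta2*, *Tpm1*, *Tpm2*, *Cnn1* and *Mylk* says only that the exact pattern is not in those bases. Forms of the box with another letter in the A or T stretch were not searched, so these windows can still hold one.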

How the data were processed

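The authors deposited whole-number UMI counts per gene and cell barcode for 4 libraries. The file headers name Cell Ranger 8.0.0, while the submitters' processing notes list Cell Ranger 10.0.0, STAR, Seurat 5.0 and GRCm39; which version made the counts was not settled. Tables were handled in pandas 2.3.3 under Python 3.11.15, intervals came from scipy 1.17.1 with numpy 2.4.6, and matplotlib 3.10.9 drew the plots. The 10 genes and all lists were chosen with earlier results of these data known. CPM were UMIs summed over kept fibroblasts per 1000000. Ratios were called at 2-fold among genes with at least 50 UMIs in the pair, with a 0 put at 3 UMIs. Thinning used seed 1. Melanoma cells had a *Pax3* UMI, no *Ptprc* UMI and at least 3 UMIs of 4 melanoma genes; immune cells had a *Ptprc* UMI and no *Pax3* UMI. *Xist*-only cells had an *Xist* UMI and none of 4 Y-linked genes, and Y-only cells the converse. Named genes were the 10 genes, those past 2-fold or most abundant in each list, and the 10 most alike over cells. No doublet caller was run. Alternatives were other limits on mitochondrial UMIs, genes and collagen UMIs, cells of 1 sex mark, removal of cells with both, cells with no mesothelial UMI, means over cells, centring on the median gene, 1.5-fold, 200 UMIs in the pair, other thinning, and removal of cells with melanoma UMIs. Calls and intervals were tested on simulated data. Depth, from 10071954 to 90259852 UMIs per library, sets the precision.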

Additional observations from a re-analysis of the deposited data

Results flagged for a closer look

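In 10 of the comparisons with tdTomato neg eGFP neg fibroblasts the log2 ratio had opposite signs in *Xist*-only and Y-only cells. Any opposite pair with at least 50 UMIs in the comparison for each sex mark is listed, whatever its size. An earlier form that asked for a minimum size gave 2 of them, both *Cnn1*, and the minimum was dropped after that result had been seen, so the count depends on this choice, and the difference between the sex marks was not tested. For tdTomato+ eGFP neg cells the *Xist*-only and Y-only values were 0.17 and -0.25 for *Acta2*, -0.18 and 0.18 for *Tagln*, and -0.62 and 0.27 for *Mylk*. For tdTomato+ eGFP+ cells they were 0.22 and -0.34 for *Acta2*, 0.26 and -0.25 for *Tagln*, 0.15 and -0.31 for *Tpm1*, 0.75 and -0.90 for *Cnn1*, and -0.82 and 0.042 for *Mylk*. For tdTomato neg eGFP+ cells they were 0.0080 and -0.51 for *Acta2* and 0.84 and -0.58 for *Cnn1*, a gene with 20 to 161 UMIs per library. *Actg2* and *Myh11* also went opposite ways in this comparison, but had too few UMIs to be counted. *Actg2* was at 0.942 against 0.886 CPM in *Xist*-only and 0.483 against 1.71 CPM in Y-only cells. *Myh11* was at 1.88 against 1.02 CPM and at 0.917 against 1.02 CPM. Among cells with 1 sex mark 56.2%, 66.0%, 64.7% and 43.7% were *Xist*-only in tdTomato neg eGFP neg, tdTomato+ eGFP neg, tdTomato+ eGFP+ and tdTomato neg eGFP+ fibroblasts.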

How the results depend on the processing

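The number of contractile genes past 2-fold was 3 in tdTomato+ eGFP neg, 2 in tdTomato+ eGFP+ and 3 in tdTomato neg eGFP+ fibroblasts. It moved by more than 1.5 times in 5 cases. Shares over all genes are given above for the main rule only. The counts under the alternatives have no such share beside them and cannot be read as more or fewer than usual. In *Xist*-only cells it was 0 for tdTomato+ eGFP+, where *Actg2* and *Myh11* had fewer than 50 UMIs in the pair, with *Myh11* at 3.31 against 1.02 CPM. In Y-only cells it was 1 for tdTomato+ eGFP neg (*Myh11*; *Actg2* had too few UMIs, as in *Xist*-only cells) and 1 for tdTomato+ eGFP+, where *Actg2* and *Myh11* again had too few UMIs and the gene called was *Myl9* (log2 ratio -1.19). At 1.5-fold it was 5 for tdTomato neg eGFP+, and with at least 200 UMIs in the pair it was 0 for tdTomato+ eGFP+, where *Actg2* and *Myh11* then had too few UMIs, as *Actg2* had in the other 2 comparisons. Of 30 log2 ratios 18 kept their sign under every alternative that gave a value. No paired analysis was possible because each population was 1 library. Removing cells with at least 3 melanoma UMIs was chosen after seeing the data. Depth limits *Cnn1*, *Actg2* and *Myh11* most.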
